A study of Mus musculus with 6 samples.

Results

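The genes described here encode 2 families of subunits of Polycomb repressive complex 1 (PRC1), the chromobox proteins Cbx2, Cbx6, Cbx7 and Cbx8 and the polyhomeotic group Phc1, Phc2, Phc3 and Scmh1. The 8 genes were taken by symbol, as every probe set of the array whose platform annotation gives 1 of these symbols and no other, which yielded 17 probe sets among the 34945 with a single symbol, and 8 of 18193 genes. RNA came from lung cells of 4-month-old female mice on a mixed Bl6/129 background, with 3 arrays labelled Bmi1 mutant, whose genotype the labels give as Bmi1 null, and 3 labelled Bmi1 wild type. The cells were not cultured. They were sorted as live and negative for CD31 and CD45, which is meant to leave out endothelial and blood cells. The labels call the arrays biological replicates but name neither the allele nor the number of mice behind each array. The p-values therefore rest only on the spread between these samples.

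PRC1 is a chromatin complex that keeps developmental genes silent. Its canonical form joins a RING protein that places ubiquitin on histone H2A, a PCGF protein such as Bmi1, a chromobox protein and a polyhomeotic protein. The chromodomain of the chromobox subunit binds histone H3 methylated by Polycomb repressive complex 2 (PRC2), and the SAM domain of the polyhomeotic subunit lets complexes join into chains that compact chromatin. The chromobox paralogs occupy the same place in the complex, and so do Phc1, Phc2 and Phc3, so that a cell can hold several forms of it. Scmh1 is grouped with the polyhomeotic genes here, but it binds polyhomeotic proteins rather than taking their place.

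The labelled genotype was checked first. Bmi1 itself read 1276, 1498 and 1565 on the mutant-labelled arrays, against 996, 980 and 1164 on the wild-type arrays, in its brightest probe set. It was therefore not lower where the labels call it null (log2 difference 0.46, limma adjusted p = 0.282), and since the deleted part is not stated, a probe set outside it checks nothing, so every direction below rests on the labels. Median signals per array lay between 97.4 and 114. Ptprc, which encodes CD45, was bright in both genotypes despite the sort, with a mean of 5767 ± 852 on mutant-labelled arrays and 7716 ± 966 on wild-type arrays (SD, n = 3 each). Pecam1, which encodes CD31 and was picked once its values were known, averaged 2939 ± 247 on mutant-labelled arrays and 2247 ± 506 on wild-type arrays. The summed signal of 6 endothelial markers, Pecam1 among them, overlapped, at 15623 to 17228 on mutant-labelled arrays and 12849 to 20958 on wild-type arrays. Of these markers 4 had a positive log2 difference and 2 a negative one. In such sorted bulk samples, a difference in the number of cells of a type and a difference in RNA per cell cannot be told apart.

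None of the 8 genes passed the test between genotypes at an adjusted p under 0.05 (limma, adjusted over all 18193 genes), nor did any of their 17 probe sets (adjusted over all 34945). Among all features tested, 0.923% of genes and 0.469% of probe sets passed. At an unadjusted p under 0.05 there were 2 of the 8 genes, Cbx6 and Cbx8, against 14.5% of all genes, and 4 of the 17 probe sets, against 13.6% of all probe sets. The 3 mutant-labelled and 3 wild-type arrays did not overlap in 1 of the 8 genes, Cbx6, against 20.5% of all genes, and in 4 of the 17 probe sets, against 19.6% of all probe sets. No filter on low signals was applied, and 7 of the 8 genes (all but Cbx2) and 11 of the 17 probe sets had a mean signal of 100 or more. The 4 probe sets without overlap were both of Cbx6, 1 of 3 of Cbx7 and 1 of 2 of Phc3. With the variance prior fitted to the signal level and made robust, Cbx6 passed (limma adjusted p = 0.0222), in a setting that called 2.41% of all genes. Under the other 17 alternatives tried 0 of the 8 genes did, but several of these called few genes or none at all. Their share over all genes ran from 0% (replicate block, fibroblast covariate) to 2.68% (signals under 100 left out). It was 0.011% to 0.418% when 1 array was left out.

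**Figure D1:**
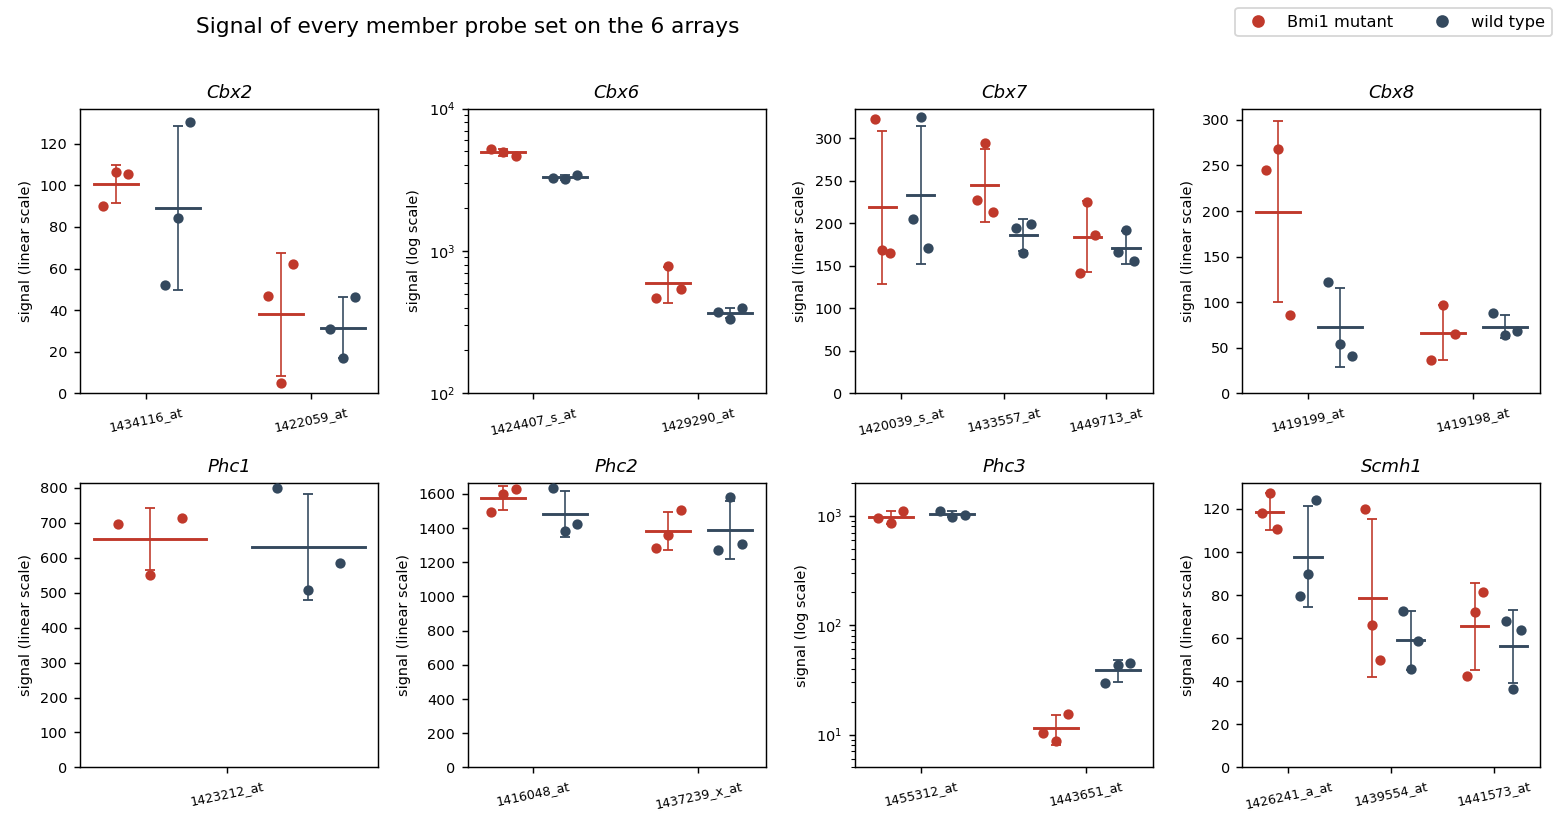
Signal of each member probe set on the 6 arrays, with a point per array, the mean as a bar and the SD as whiskers, mutant-labelled arrays in red and wild-type arrays in dark blue. Both Cbx6 probe sets and the dim Phc3 probe set separate the genotypes, while most others overlap; the Cbx6 and Phc3 panels have log axes and the others linear axes.

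Cbx6, a chromobox subunit of PRC1, had the smallest p of the 8 genes and was the one whose groups did not overlap. Its brighter probe set, 1424407_s_at, read 5201, 4986 and 4665 on the mutant-labelled arrays, against 3277, 3179 and 3425 on the wild-type arrays. All 3 mutant-labelled arrays lay above all 3 wild-type arrays, and the gap between the groups was wider than the range within either. The log2 difference, taken on log2(signal + 16), was 0.58 ± 0.15 (SE), which is 1.5 times, with a 95% interval of 0.23 to 0.94, an unadjusted p of 0.00584 and an adjusted p of 0.142 in limma. The second probe set, 1429290_at, was dimmer and read 468, 787 and 544 on the mutant-labelled arrays, against 370, 335 and 394 on the wild-type arrays. It also separated the genotypes, with a log2 difference of 0.66 ± 0.23 (SE, limma adjusted p = 0.280 over all probe sets), so that both probe sets gave a difference of like size.

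Markers of several cell types also separated the same arrays: those of mesenchymal cells and neutrophils were brighter in sum on mutant-labelled arrays, as were those of alveolar type 1 and type 2 cells, and those of lymphocytes and proliferation genes were dimmer. The summed signal of 10 fibroblast markers ranged from 58965 to 63519 on mutant-labelled arrays and from 26453 to 51191 on wild-type arrays, with all 10 higher in mean and 1 of them, Col1a1, called. That of 9 smooth muscle and pericyte markers ranged from 11287 to 13710 on mutant-labelled arrays and from 3165 to 9826 on wild-type arrays. The 5 neutrophil markers summed to 19811 to 39945 on mutant-labelled arrays and 10247 to 14213 on wild-type arrays, and 0 were called in both lists. The lymphocyte lists ran the other way, with called genes in each. Markers of B cells summed to 644 to 972 on mutant-labelled arrays and 4451 to 5585 on wild-type arrays, with 5 of 5 called lower. The 7 markers of natural killer and T cells summed to 4007 to 6640 on mutant-labelled arrays and 13713 to 21780 on wild-type arrays. Of these, 4 were called lower, Ncr1, Klre1, Gzma and Gzmb. The CD3 genes Cd3d, Cd3g and Cd3e differed by -1.08, -1.13 and -0.53 and were not called (limma adjusted p = 0.0663, 0.225 and 0.340). The 10 general hematopoietic markers overlapped, at 72806 to 87576 on mutant-labelled arrays and 70121 to 91933 on wild-type arrays. Alveolar type 2 markers (5) summed to 61105 to 65387 on mutant-labelled arrays and 50294 to 58729 on wild-type arrays. Those of type 1 cells (5) summed to 21733 to 23821 on mutant-labelled arrays and 17683 to 20789 on wild-type arrays, and 0 were called in both lists. Among the type 2 markers Sftpb and Sftpa1 separated the genotypes by themselves (log2 difference 0.34 and 0.12). Sftpc, Abca3 and Etv5 overlapped (0.15, 0.089 and 0.24). Among the type 1 markers only Pdpn separated the genotypes by itself (log2 difference 1.51). Cav1 was lower (-0.16), and Ager, Hopx and Aqp5 differed by 0.18 to 0.26 with overlap. The 4 airway markers overlapped in sum, at 29128 to 35357 on mutant-labelled arrays and 25819 to 33164 on wild-type arrays. The 11 proliferation genes summed to 7923 to 10076 on mutant-labelled arrays and 12662 to 17197 on wild-type arrays, all 11 lower in mean, with 6 at an unadjusted p under 0.05 and 0 called. In the 6 lists of fibroblast, smooth muscle and pericyte, neutrophil, B cell, natural killer and T cell, and hematopoietic markers, 0 markers had a mean signal under 100. With the mean level of the fibroblast markers as a covariate the difference of Cbx6 was 0.63 (limma unadjusted p = 0.0409, adjusted p = 0.659). That fit called 0 of all genes. The covariate itself separated the genotypes, at 12.04 to 12.12 on mutant-labelled arrays and 10.72 to 11.84 on wild-type arrays (log2), so the fit cannot part it well from genotype. With the mean level of the hematopoietic markers the difference of Cbx6 was 0.59 (limma adjusted p = 0.188). The part of any of these cell types in the difference was not tested.

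**Figure D2:**
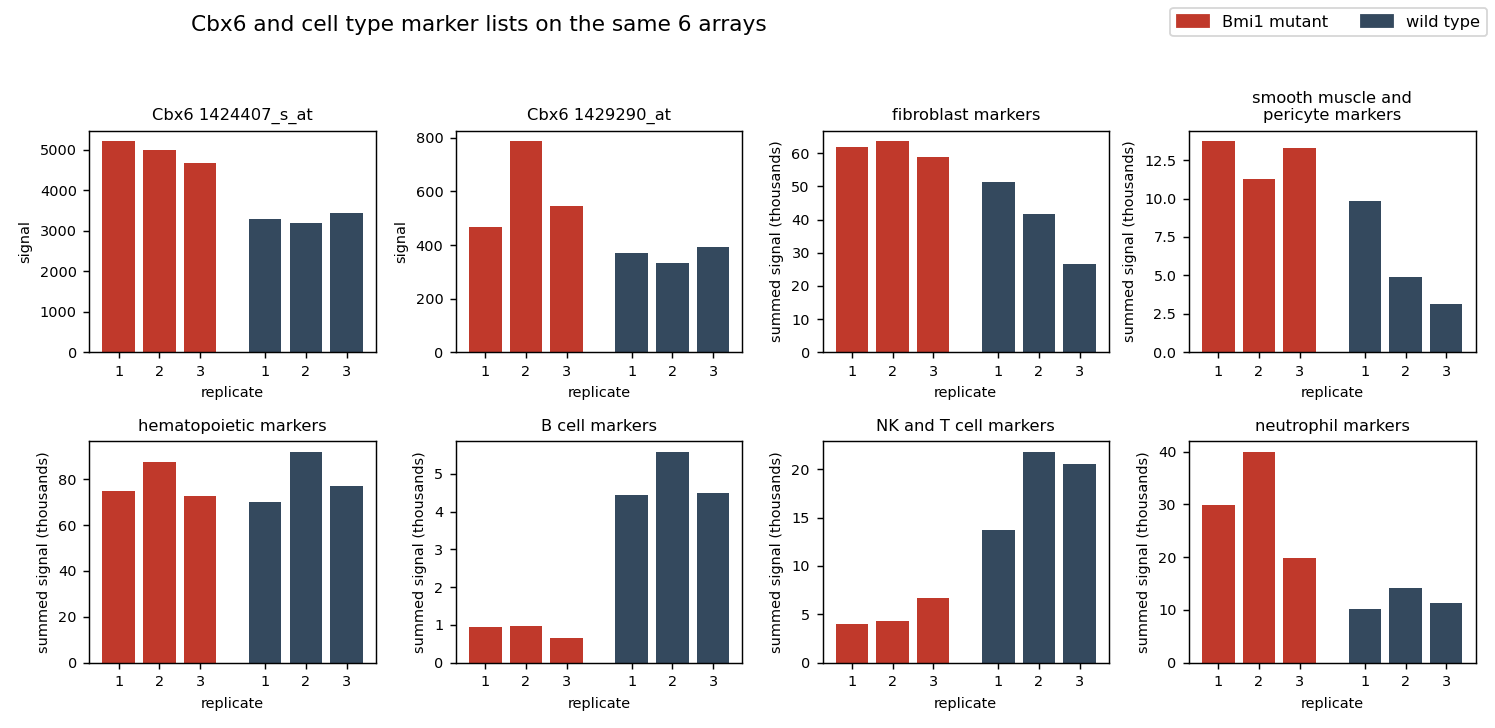
Signal of the 2 Cbx6 probe sets and summed signal of 6 marker lists on each array, as bars by replicate, mutant-labelled arrays in red on the left and wild-type arrays in dark blue on the right. The mutant-labelled arrays lie above the wild-type arrays in both Cbx6 probe sets and in the fibroblast, smooth muscle and neutrophil sums, and below them in the lymphocyte sums, while the hematopoietic sums overlap.

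Cbx6 lies on chromosome 15 with Cbx7, and 1 protein-coding gene separates them in the RefSeq annotation of mouse assembly GRCm38.p6. Cbx2 and Cbx8 are direct neighbours on chromosome 11. Polycomb complexes are known to occupy CpG-rich promoters, so the 250 bases upstream of the annotated start were read from RefSeq windows for 7 of the 8 genes. The Cbx6 window is shown because its signal separated the genotypes, that of Cbx7 as its neighbour, and that of Phc1 as a CpG-poorer promoter of the polyhomeotic group. Capitals mark each CpG, and each sequence runs 5′ to 3′ on the strand of the gene, which is the minus strand for all 3, at chr15:79834334-79834583, chr15:79932647-79932896 and chr6:122340228-122340477 of GRCm38.p6.
Cbx6: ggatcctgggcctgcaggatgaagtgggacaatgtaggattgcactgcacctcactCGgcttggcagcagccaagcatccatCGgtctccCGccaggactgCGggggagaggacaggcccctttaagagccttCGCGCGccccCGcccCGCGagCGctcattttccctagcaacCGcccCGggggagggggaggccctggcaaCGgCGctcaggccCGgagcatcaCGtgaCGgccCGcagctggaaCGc
Cbx7: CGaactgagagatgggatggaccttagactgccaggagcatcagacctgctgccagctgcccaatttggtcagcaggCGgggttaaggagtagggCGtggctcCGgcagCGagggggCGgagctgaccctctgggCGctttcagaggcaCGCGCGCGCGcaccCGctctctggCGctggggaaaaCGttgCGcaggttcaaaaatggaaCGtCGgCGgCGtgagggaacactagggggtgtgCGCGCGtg
Phc1: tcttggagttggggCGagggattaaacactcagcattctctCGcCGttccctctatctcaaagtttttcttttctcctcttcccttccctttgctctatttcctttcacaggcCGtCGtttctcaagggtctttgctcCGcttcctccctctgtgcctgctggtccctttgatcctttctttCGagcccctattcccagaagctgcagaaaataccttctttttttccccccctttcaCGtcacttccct
The Cbx6 window held 20 CpG, a number that 17.9% of the 32851 promoter windows in the RefSeq table reach. That of Cbx7 held 23, reached by 13.3%, that of Cbx8 held 22, reached by 14.8%, and that of Phc1 held 8, reached by 43.0%. The other windows of the polyhomeotic group lay on both sides of these counts. Those of Scmh1 held 45 and 0, those of Phc2 held 13, 1 and 34, and that of Phc3 held 12. The median window held 6, and 8 of the 10 windows of these genes lay above it. A CpG count describes the sequence and says nothing of what binds there.

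Cbx7, the neighbour of Cbx6 and a known repressor of the Ink4a/Arf locus, was read by 3 probe sets that did not move together. Its brightest probe set, 1420039_s_at, read 322, 168 and 165 on the mutant-labelled arrays, against 205, 325 and 171 on the wild-type arrays. One array of each genotype stood high and the groups overlapped fully (log2 difference -0.11 ± 0.33, limma adjusted p = 0.924). The probe set 1433557_at read 227, 294 and 213 on the mutant-labelled arrays, against 195, 165 and 199 on the wild-type arrays, without overlap but with a log2 difference of 0.36 ± 0.19 (SE) and an adjusted p of 0.471 in limma. The third, 1449713_at, read 142, 225 and 186 on mutant-labelled arrays and 166, 193 and 155 on wild-type arrays (log2 difference 0.08). No single direction can be given for Cbx7, and its gene-level value turned positive in the mean of its probe sets (0.11).

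Cbx8, a chromobox subunit that also takes part in repression of Ink4a/Arf, had the greatest fitted difference of the 8 genes and the widest spread. The probe set 1419199_at read 245, 268 and 85.5 on the mutant-labelled arrays, against 122, 53.8 and 41.0 on the wild-type arrays. Mutant replicates 1 and 2 stood above every wild-type array, whereas mutant replicate 3 lay below wild-type replicate 1. The log2 difference was 1.26 ± 0.49 (SE), with a 95% interval of 0.10 to 2.41, an unadjusted p of 0.0368 and an adjusted p of 0.306 in limma. The other probe set, 1419198_at, read 36.7, 97.3 and 65.2 on the mutant-labelled arrays, against 87.7, 63.6 and 68.5 on the wild-type arrays, a log2 difference of -0.18 ± 0.30. The 2 probe sets thus differed in sign, and the mean of both gave 0.54. The fibroblast covariate gave 0.50 (limma adjusted p = 0.939), in a fit that called 0 of all genes.

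Cbx2, the chromobox subunit known for its role in axial patterning and sex determination, had the lowest mean signal of the 4 chromobox members. Its brighter probe set, 1434116_at, read 90.1, 106 and 106 on the mutant-labelled arrays, against 52.1, 84.3 and 131 on the wild-type arrays. The wild-type arrays spread on both sides of the mutant-labelled ones, with a log2 difference of 0.22 ± 0.29 (limma adjusted p = 0.794) and a 95% interval of -0.46 to 0.90. With the fibroblast covariate the difference was 0.92 (limma adjusted p = 0.525), in a fit that called 0 of all genes. The probe set 1422059_at read between 4.91 and 62.3 on the mutant-labelled arrays and between 17.03 and 46.4 on the wild-type arrays, and the groups overlapped.

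**Figure D3:**
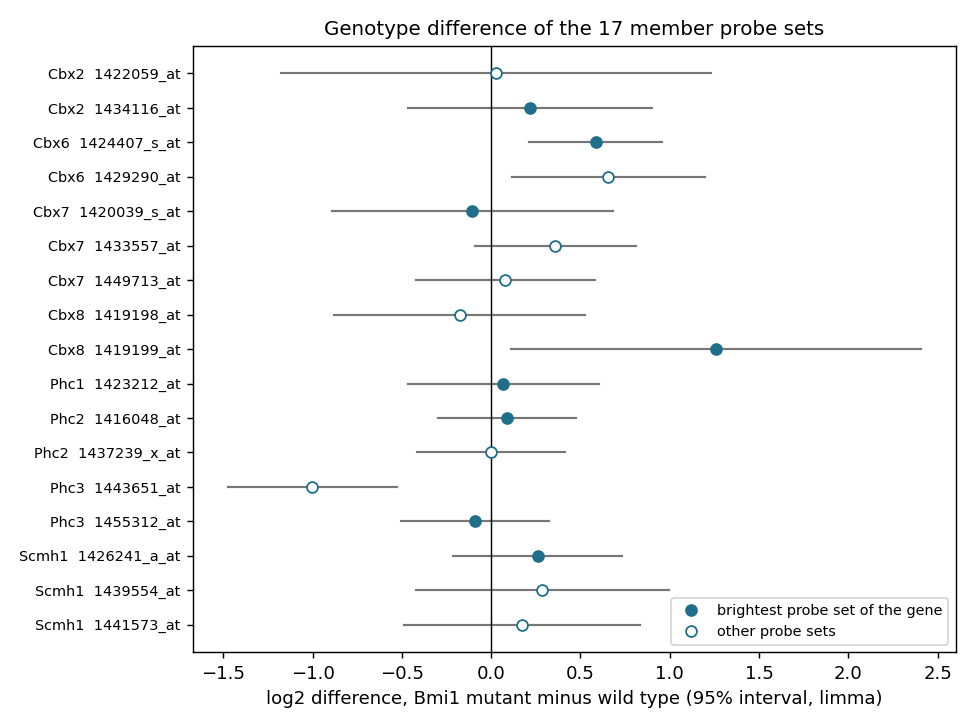
Log2 difference of each of the 17 probe sets, Bmi1 mutant minus wild type, with limma's 95% interval as a line; filled points are the brightest probe set of a gene and open points the others. Of the intervals, 4 leave out 0, those of both Cbx6 probe sets, 1 Cbx8 probe set and the dim Phc3 probe set, before adjustment.

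Phc1, Phc2 and Phc3 had log2 differences between -0.09 and 0.09 in their brightest probe sets, and the arrays of both genotypes overlapped in each. Phc1 read 695, 550 and 714 on the mutant-labelled arrays, against 798, 506 and 585 on the wild-type arrays, in its single probe set 1423212_at. The groups overlapped, and the log2 difference of 0.07 ± 0.22 had a 95% interval of -0.46 to 0.59 (limma adjusted p = 0.929). Phc2, the brightest of the group, read 1496, 1598 and 1629 on the mutant-labelled arrays, against 1635, 1385 and 1424 on the wild-type arrays, in 1416048_at. Its log2 difference was 0.09 ± 0.16 with an interval of -0.28 to 0.46 (limma adjusted p = 0.853), and its other probe set, 1437239_x_at, averaged 1383 ± 111 on mutant-labelled arrays and 1387 ± 171 on wild-type arrays (SD, n = 3 each).

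Phc3 gave 2 readings that stood far apart in brightness. The bright probe set, 1455312_at, read 948, 857 and 1111 on the mutant-labelled arrays, against 1097, 973 and 1024 on the wild-type arrays, with overlap and a log2 difference of -0.09 ± 0.17 (limma adjusted p = 0.866). The dim probe set, 1443651_at, read 10.2, 8.75 and 15.5 on the mutant-labelled arrays, against 29.3, 42.9 and 45.5 on the wild-type arrays. It was lower on all 3 mutant-labelled arrays, with a log2 difference of -1.001 ± 0.20, an unadjusted p of 0.00154 and an adjusted p of 0.102 in limma over all probe sets, the smallest of the 17. Its levels lie near the added offset of 16, so the fitted difference depends on that offset. The files do not say which part of the transcript each probe set reads.

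Scmh1, a relative of the fly gene Sex comb on midleg that binds polyhomeotic proteins through its SAM domain, was dim. Its brightest probe set, 1426241_a_at, read 118, 128 and 111 on the mutant-labelled arrays, against 79.4, 90.0 and 124 on the wild-type arrays. Wild-type replicate 3 lay among the mutant-labelled arrays, and the log2 difference was 0.26 ± 0.19 with an interval of -0.20 to 0.72 (limma adjusted p = 0.610). All 3 probe sets of Scmh1 had a positive difference, between 0.17 and 0.29, with overlap in each.

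Members were ranked within each family in order of signal and in order of genotype difference. A signal also depends on how well each probe set binds, so the first order ranks signals on this array and not amounts of RNA. The polyhomeotic group kept the order Phc2, Phc3, Phc1 and Scmh1 from bright to dim on all 6 arrays. Among the chromobox genes Cbx6 was the brightest on all 6 arrays, and the order of the other 3 varied: Cbx7, Cbx2, Cbx8 on 3 arrays, Cbx7, Cbx8, Cbx2 on 2 and Cbx8, Cbx7, Cbx2 on 1. By genotype difference, the chromobox order was Cbx8 (1.26), Cbx6 (0.58), Cbx2 (0.22) and Cbx7 (-0.11), and the polyhomeotic order was Scmh1 (0.26), Phc2 (0.09), Phc1 (0.07) and Phc3 (-0.09).

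Whether 1 member shifted relative to another was tested for the 6 pairs in each family. The test used the log2 ratio of the 2 signals on the same array. A two-sided exact permutation test with 3 arrays against 3 cannot give a p below 0.1. Of the 12 pairs, 0 separated the genotypes. The ratio of Cbx6 over Cbx7 averaged 4.47 ± 0.45 on mutant-labelled arrays and 3.78 ± 0.50 on wild-type arrays (SD, n = 3 each, log2), a difference of 0.69 ± 0.39 (SE, exact permutation p = 0.2, adjusted p = 0.480 over the 12 pairs). The ratio of Cbx7 over Cbx8 averaged 0.20 ± 0.75 on mutant-labelled arrays and 1.56 ± 0.82 on wild-type arrays, a difference of -1.36 ± 0.64 (exact permutation p = 0.2, adjusted p = 0.480). The ratio of Phc2 over Phc3 differed by 0.18 ± 0.11 (exact permutation p = 0.2) and that of Phc1 over Phc2 by -0.023 ± 0.17 (exact permutation p = 1). With the mean of all probe sets of a gene, 4 pairs separated the genotypes at the smallest possible p of 0.1 (adjusted p = 0.3), among them Cbx6 over Cbx7, with a difference of 0.51 ± 0.17. The other 3 were Phc1 over Phc3 (0.61 ± 0.24), Phc2 over Phc3 (0.59 ± 0.11) and Phc3 over Scmh1 (-0.79 ± 0.20), in all of which the mean of Phc3 takes in its dim probe set.

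The 4 chromobox members had a median log2 difference of 0.40 and the 4 polyhomeotic members of 0.08, against a median of 0.0059 over all genes tested. Other genes of the Polycomb system were counted in the same fit, and 0 were called in each list. Of 4 other canonical PRC1 subunits, 1 reached an unadjusted p under 0.05 (Bmi1). The RING subunit Ring1 differed by -0.062 and Pcgf2, the paralog of Bmi1, by 0.28. Of 13 subunits of variant PRC1, which lacks the Polycomb chromobox proteins such as Cbx2, Cbx6, Cbx7 and Cbx8, 2 did. Kdm2b, which binds unmethylated CpG, averaged 578 ± 85.3 on mutant-labelled arrays and 948 ± 77.7 on wild-type arrays (SD, n = 3 each), a log2 difference of -0.71 (limma adjusted p = 0.136). Auts2, a subunit of complexes with Pcgf5, averaged 810 ± 291 on mutant-labelled arrays and 304 ± 127 on wild-type arrays, a difference of 1.39 (limma adjusted p = 0.197). Of the 11 subunits of PRC2, which places the mark that chromobox proteins read, 9 had a negative difference and 1 reached an unadjusted p under 0.05, Mtf2 (-0.51, limma adjusted p = 0.288), with a median of -0.20 for the list. The 3 chromobox genes of heterochromatin protein 1, Cbx1, Cbx3 and Cbx5, whose chromodomain reads another histone mark, differed by -0.18, -0.20 and -0.019. The 5 other genes of the MBT and SAM group had a median of 0.23 and the 4 subunits of the H2A deubiquitinase complex a median of -0.062, with 0 at an unadjusted p under 0.05 in both.

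**Figure D4:**
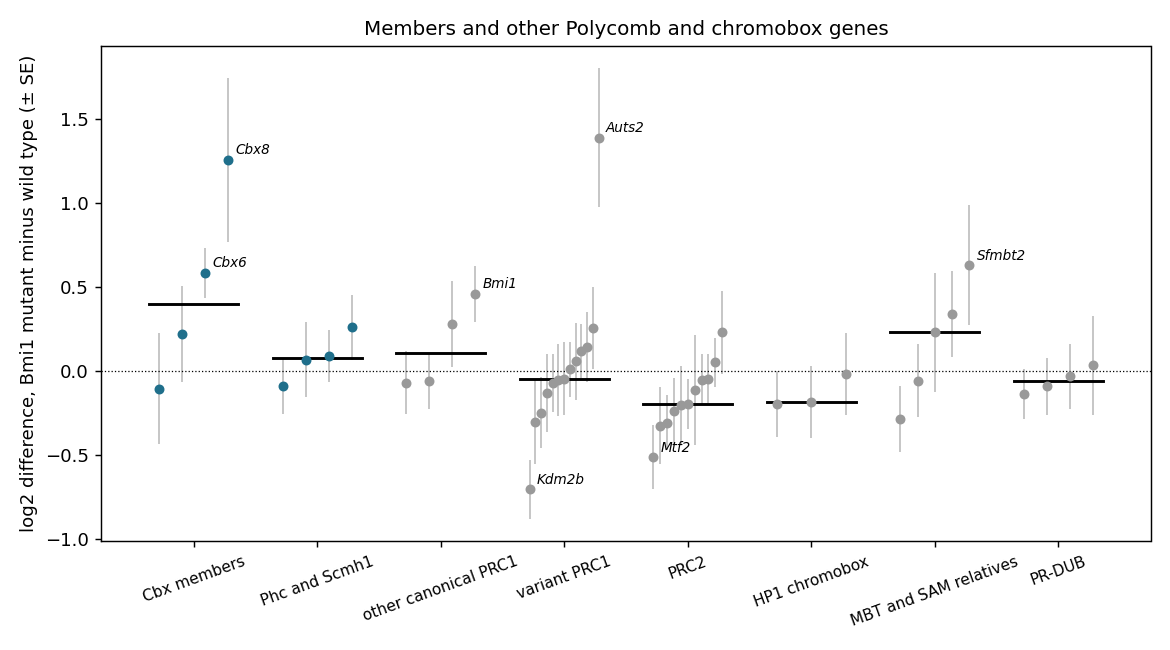
Log2 difference, Bmi1 mutant minus wild type, of the members (blue) and of other Polycomb and chromobox genes (grey), with limma's SE as whiskers and the median of each list as a black bar. Cbx8, Cbx6 and Auts2 lie above the rest of their lists and Kdm2b below, and the PRC2 median is -0.20.

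The patterns most like those of Cbx6 and Scmh1, the members with the smallest p in each family, were sought among 11491 genes with a mean signal of 100 or more. Over the 6 arrays, the log2 signal of Cbx6 was most like that of Arg1, which encodes an arginase (Pearson r = 0.998), Rnf11, which encodes a RING finger protein (r = 0.997), and Cdkn1c, an inhibitor of cyclin-dependent kinases (r = 0.995). These values describe arrays that fall into 2 genotypes and carry no test, and 129 genes exceeded 0.95 with Cbx6. The sizes differed: Arg1 averaged 1895 on mutant-labelled arrays and 111 on wild-type arrays, and Cdkn1c averaged 5190 on mutant-labelled arrays and 624 on wild-type arrays, whereas Cbx6 averaged 4951 on mutant-labelled arrays and 3294 on wild-type arrays. For Scmh1 the nearest were Dlg1 (r = 0.994), Mrpl19 (r = 0.987) and Asb4 (r = 0.983), and 14 genes exceeded 0.95.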

How the data were processed

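The authors deposited 1 intensity per probe set and array (Affymetrix Mouse Genome 430 2.0), on a linear scale. Per the submitters' processing notes the software was Affymetrix Expression Console 1.1. How probes were summarized, corrected for background or called detected is not given in the sources used here. The trimmed mean of every array is 500.002 to 500.003, so the arrays had been scaled to a common mean before deposit, which hides any shift that all genes share. The number of arrays limits the precision.

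Signals were turned to log2(signal + 16), which understates the fold of dim genes. Control probe sets (64) and those with several (932) or no (9160) symbols were left out, and each gene was read from its brightest probe set (mean log2 over the 6 arrays). Genotypes were compared in limma 3.58.1 (lmFit, eBayes; R 4.3.3) with Benjamini-Hochberg adjustment over all genes or all probe sets, and the same code was tested on simulated data. Intervals are limma's, before adjustment. Members, lists and rules were chosen with earlier results of these data known. All members were named whatever their values, from each other list up to 3 genes with the smallest p, and for likeness 3 genes with the highest Pearson correlation. Rybp, L3mbtl1 and L3mbtl4 were not analysed here. Figures used matplotlib 3.10.9. Alternatives were other normalizations, offsets of 1 and 64, a filter on signals under 100, another prior, array weights, a replicate block, marker covariates, the mean of probe sets, an adjusted p under 0.1, and leaving out each array.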

Additional observations from a re-analysis of the deposited data

How the results depend on the processing

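The count of member genes called was 0 in 17 of 18 alternative settings and 1, Cbx6, with the trend and robust prior, where 1 member probe set was also called and 438 of all 18193 genes passed, against 168 in the reported fit. With offsets of 1 and 64 the adjusted p of Cbx6 was 0.211 and 0.0564 and with signals under 100 left out it was 0.0750. The log2 difference of Cbx6 ranged from 0.55 to 0.63 and stayed positive in all 17 refits. So did that of Cbx8 (0.50 to 1.73) and Scmh1 (0.14 to 0.63), while that of Phc3 stayed negative (-0.55 to -0.0052). The other prior, the filter on signals and the replicate block cannot move these differences, so their signs there were fixed in advance. Directions turned in Cbx2, Cbx7, Phc1 and Phc2. With the fibroblast covariate Phc1 was at -0.16 and Phc2 at -0.0098, while Cbx2 was at 0.92, and with the mean of probe sets Cbx7 was at 0.11. When 1 array was left out, Cbx2 ranged from -0.059 (without wild-type replicate 1) to 0.49, Cbx7 from -0.40 to 0.14 (positive without wild-type replicate 2, mutant replicate 2 or mutant replicate 3), and Phc1 from -0.073 (without wild-type replicate 2) to 0.25. Pairs of members whose ratio separated the genotypes numbered 0 with all arrays, 4 with the mean of probe sets and 0 to 5 with 1 array left out. Left-out counts above 0 were 5 without wild-type replicate 1, 4 without wild-type replicate 3, 1 without mutant replicate 1 and 5 without mutant replicate 3. Fewer arrays make separation easier. Replicate numbers are shared by the genotypes. Same-numbered arrays deviated together at a correlation of 0.032 to 0.073, against -0.057 to 0.0014 for the other pairs, so each array correlated best with its own number. Whether same-numbered arrays share more than a number was not tested. With the replicate block 0 genes were called in the whole table, against 75 higher and 93 lower without it, and the adjusted p of Cbx6 was 0.253. With the fibroblast covariate 0 genes were called as well, with 1335 at an unadjusted p under 0.05 in limma. The dim signals of Cbx2, Scmh1 and the second Phc3 probe set limit what can be read from them.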
